A study of Mus musculus with 12 samples.

Results

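The comparison set 3 arrays of kidney proximal tubules from dB/dB mice against 3 arrays of proximal tubules from wild-type mice, 6 of the 12 arrays of the study. The 6 arrays were chosen by their titles alone, and no measured value entered the choice. All mice were 20 weeks old and were kept on a normal diet with plain water, and neither group carried the catalase transgene of the study's other 2 groups. The tubules were isolated on a Percoll gradient and their RNA was taken up in Trizol, with no sort on a marker. The labels do not name the allele behind dB/dB, the strain background or the sex of the mice, and they do not say whether the 3 samples of a group came from separate animals. The p-values therefore reflect only how far these samples spread, and that spread may be technical.

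dB/dB mice carry a defective leptin receptor, so the satiety hormone leptin does not signal, and they overeat, become obese and turn hyperglycaemic. The proximal tubule is the first stretch of the nephron after the glomerulus; it takes filtered glucose, amino acids, phosphate and protein back from the urine, makes glucose, and burns fatty acids in mitochondria and peroxisomes. In diabetes it meets a high load of filtered glucose, and oxidative stress, tubular apoptosis, lipid storage and local angiotensinogen have been studied there. A Percoll preparation enriches tubule fragments but can hold pieces of glomeruli, vessels and other tubule segments, so markers of those cells were followed as well.

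Expression is given as log2 values, in which a difference of 1 is a 2-fold difference. The values had a floor at 2.30, and a probe set was tested if it exceeded 4 on 3 or more arrays of the 12. This kept 18144 probe sets, which named 9751 genes, and where a gene had several the brightest by mean stands for it. A gene is said to be without overlap when its 3 dB/dB arrays all lay above, or all lay below, its 3 wild-type arrays.

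The wild-type arrays did not form a tight group. Across the probe sets tested, the dB/dB arrays correlated with each other at r = 0.966 to 0.987, but wild type 1 correlated with wild type 2 at only 0.828 and with wild type 3 at 0.901. Wild type 1 correlated with the dB/dB arrays at 0.956 to 0.974, closer than with its own group. It differed from the dB/dB mean by more than 2-fold at 958 probe sets (5.28%), against 4107 (22.6%) for wild type 2 and 2504 (13.8%) for wild type 3. Wild type 2 stood apart in another way. Xist, the RNA that coats the inactive X chromosome of female cells, read 2.32, 11.91 and 6.72 on wild type 1 to 3 and 2.34 to 2.55 on the dB/dB arrays. Eif2s3y, a Y-linked translation factor gene, read 8.13, 2.30 and 7.89 in wild type and 8.42 to 8.93 in dB/dB. Wild type 2 thus carried Xist with Eif2s3y at the floor, wild type 3 carried both, and wild type 1 and the dB/dB arrays carried Eif2s3y with Xist near the floor. List medians that turn on these arrays are given with and without them. Wild type 1 was singled out for its likeness to dB/dB, so leaving it out widens most differences and lowers the spread by construction, and the 2 wild-type arrays then left both carry Xist. Adjusted p-values without wild type 1 are therefore given below as a description and support nothing by themselves.

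Markers that define the segment were high on all 6 arrays. Slc34a1, the phosphate transporter of the brush border, read 12.84, 13.62 and 13.55 in wild type and 13.47 to 13.49 in dB/dB. Lrp2, the endocytic receptor megalin, read 10.39, 13.36 and 12.62 in wild type and 11.46, 11.70 and 11.75 in dB/dB. The 2 groups overlapped for Lrp2, with wild type 1 lowest and the other 2 wild-type arrays highest. The leptin receptor itself could not check the genotype label. All 4 Lepr probe sets lay at 2.30 to 2.72 on the 6 arrays, at or near the floor, and none was tested.

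No probe set passed an adjusted p of 0.05 in dB/dB against wild type (0 of 18144, 0%, limma fitted over all 12 arrays). At an unadjusted p under 0.05 there were 755 (4.16%). The smallest adjusted p was 0.363 and belonged to Rgcc and Cdk5rap1. Of 9751 genes, 212 (2.17%) lay higher in dB/dB without overlap and 817 (8.38%) lay lower, 6064 (62.2%) had a difference below 0, and 3686 (37.8%) had one above 0. That split rests on the scaling of the arrays: the median difference over all genes was -0.11 as deposited, 0.01 after centring each array on its median, and -0.02 after quantile normalization. Genes without overlap then split into 477 higher and 410 lower after centring and 321 higher and 525 lower after quantile normalization, so that the higher share was 20.6%, 53.8% and 37.9% in turn. Without wild type 1, where only 2 wild-type arrays had to be cleared, 2031 genes lay higher and 3485 lower without overlap. Without wild type 2 the counts were 324 and 1112.

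**Figure D1:**
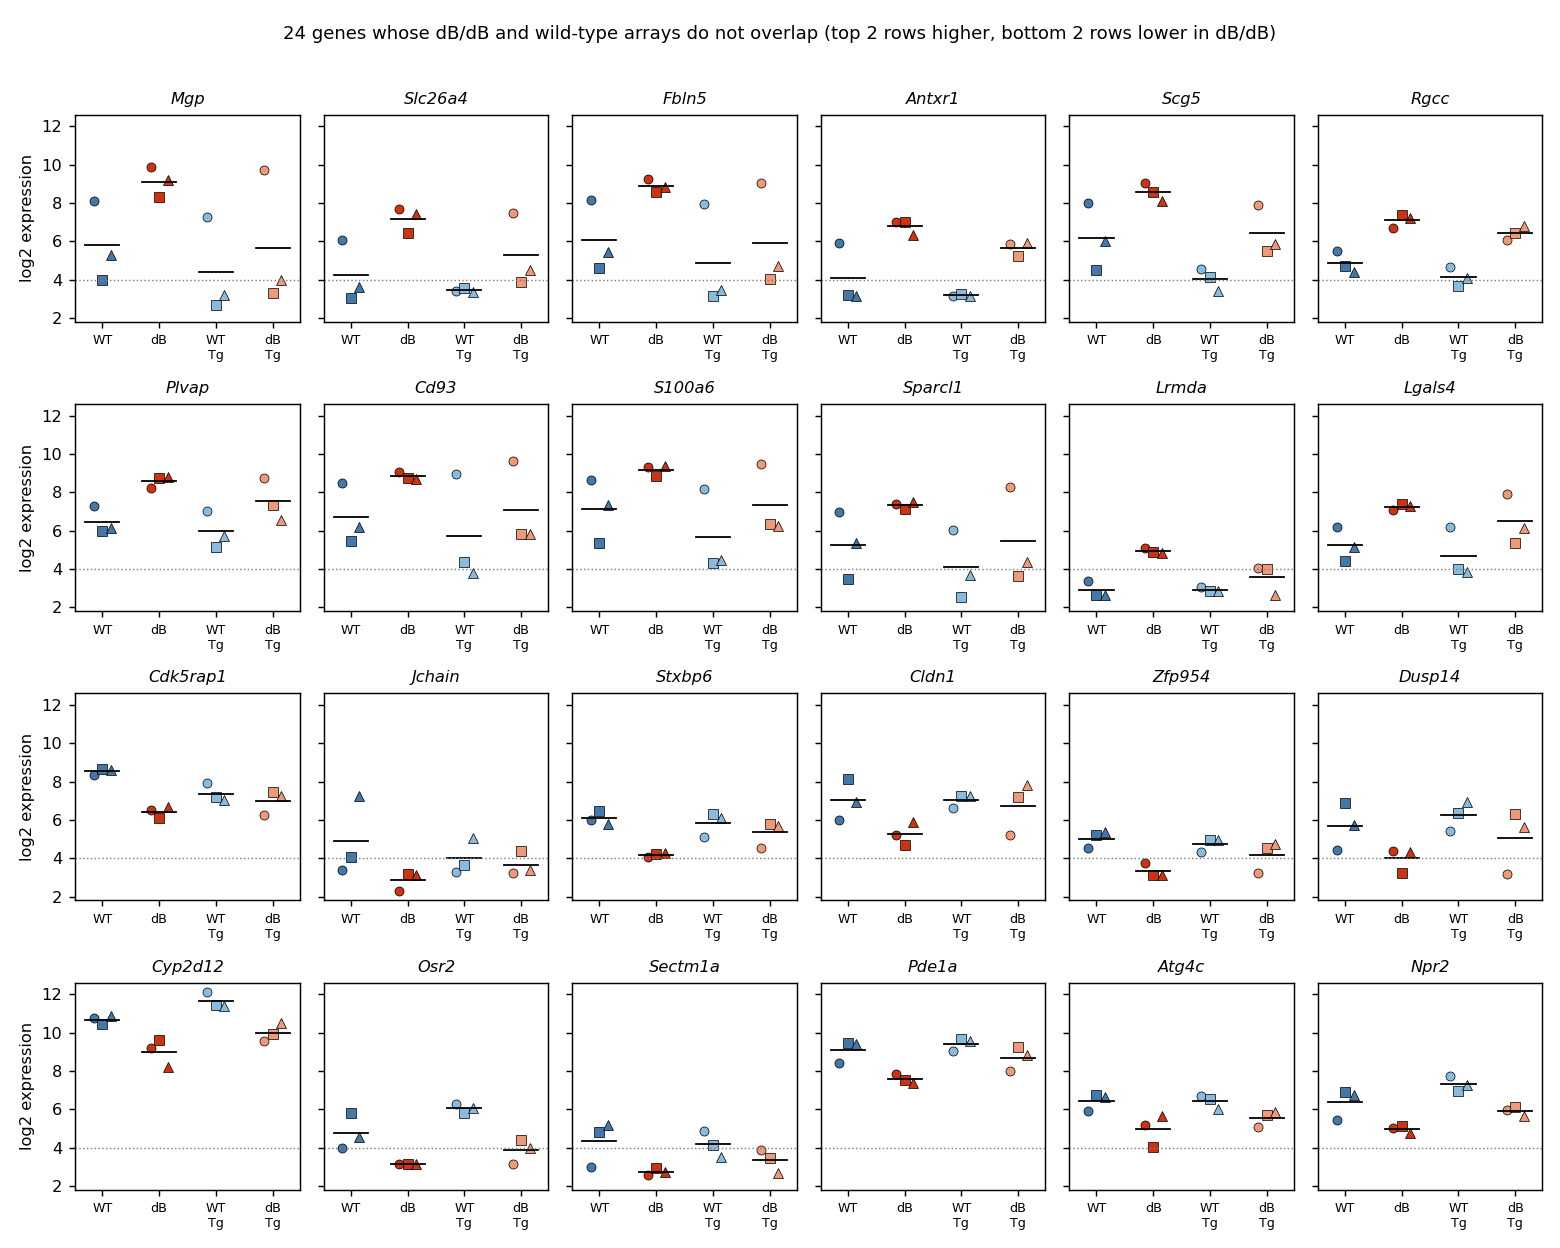
Log2 expression (vertical axis) of the 24 genes named by rule, on each array of the 4 groups: wild type (WT), dB/dB (dB), catalase-Tg (WT Tg) and dB/dB catalase-Tg (dB Tg). Circles, squares and triangles are arrays 1, 2 and 3, the short lines are group means, and the dotted line is the value of 4 used as a filter. Array 1 of wild type lies nearest to the dB/dB arrays for most of the higher genes, as for Mgp at 8.12, and Rgcc and Cdk5rap1 show the 2 groups well apart.

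Rgcc, a complement-responsive regulator of the cell cycle, had the most regular difference among the genes that lay higher. It read 5.48, 4.72 and 4.41 in wild type and 6.72, 7.40 and 7.20 in dB/dB. All 3 dB/dB arrays cleared the highest wild-type array, wild type 1, by more than the spread within either group. The difference was 2.23 (log2, SE 0.34), a 4.7-fold difference, with an adjusted p of 0.363 in limma. It was 2.54 without wild type 1, where it passed (adjusted p = 0.0231 in limma), and 2.16 without wild type 2. Over all alternatives the adjusted p ran from 0.00166 to 1.00. A second Rgcc probe set, which lay too low to be tested, read 3.17, 2.89 and 3.20 in wild type and 4.54, 3.50 and 4.47 in dB/dB, again without overlap.

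Several of the genes that lay most above wild type belong to blood vessels, connective tissue or later tubule segments. Mgp, the matrix Gla protein that inhibits calcification, read 8.12, 3.99 and 5.31 in wild type and 9.88, 8.30 and 9.19 in dB/dB. Its difference of 3.32 (SE 1.75) was the largest among these genes, a 9.98-fold difference, with a gap of only 0.18 between wild type 1 and the lowest dB/dB array. Fbln5, an elastic fibre protein, read 8.18, 4.61 and 5.44 against 9.27, 8.56 and 8.83. Mgp and Fbln5 thus shared 1 picture, with wild type 1 close to dB/dB and wild type 2 far below.

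Slc26a4, the chloride and bicarbonate exchanger pendrin of the collecting system, read 6.10, 3.06 and 3.61 in wild type and 7.70, 6.42 and 7.41 in dB/dB. The difference was 2.92 (SE 0.94), or 7.58-fold, and it stayed at 2.32 without wild type 2. Antxr1, a collagen-binding receptor that anthrax toxin also uses, read 5.93, 3.19 and 3.18 against 7.01, 7.01 and 6.34. Its difference was 2.69 (SE 0.62), with wild type 1 standing between the other 2 wild-type arrays and the dB/dB arrays. Without wild type 1 it was 3.60 and passed (adjusted p = 0.00195 in limma, 0.00116 to 1.00 over all alternatives). Scg5, a chaperone of a prohormone convertase, read 8.0, 4.52 and 6.04 against 9.07, 8.61 and 8.09, a difference of 2.40 (SE 0.83).

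Endothelial genes made up part of the remainder. Plvap, the diaphragm protein of fenestrated capillaries, read 7.30, 5.99 and 6.15 in wild type and 8.25, 8.76 and 8.81 in dB/dB, a difference of 2.13 (SE 0.61). Cd93, an endothelial surface lectin, read 8.49, 5.49 and 6.21 against 9.09, 8.77 and 8.70, a difference of 2.12 (SE 1.40). The gap between wild type 1 and the lowest dB/dB array was 0.21 for Cd93, whose 3 probe sets all lay higher without overlap. S100a6, a calcium-binding protein found in injured tubules, differed by 2.07 (SE 1.19) and Sparcl1, a matricellular protein of vessels, by 2.07 (SE 1.27). Lgals4, a sugar-binding galectin, differed by 2.00 (SE 0.75). Lrmda, a gene of melanocyte differentiation, read 3.40, 2.66 and 2.67 in wild type, under the filter value of 4, and 5.08, 4.92 and 4.84 in dB/dB. Its difference of 2.03 (SE 0.35) had an adjusted p of 0.489 in limma and passed without wild type 1 (2.28, adjusted p = 0.0364, 0.0047 to 1.00 over all alternatives). Among the 6 arrays only those of dB/dB exceeded the filter value, so the lack of overlap of Lrmda and that pass support nothing by themselves.

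Among the genes that lay lower, Cdk5rap1, a mitochondrial enzyme that modifies transfer RNAs, had the tightest groups. It read 8.35, 8.66 and 8.64 in wild type and 6.53, 6.11 and 6.68 in dB/dB. Here wild type 1 lay with its own group, and the gap between the nearest arrays of the 2 groups was 1.67. The difference was -2.11 (SE 0.33), or 4.31-fold, with an adjusted p of 0.363 in limma. It was -2.21 without wild type 1 (adjusted p = 0.0443 in limma, 0.00132 to 1.00 over all alternatives) and stayed between -2.23 and -1.91 over all 24 alternatives.

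Cyp2d12, a cytochrome P450 of a family with near-identical members that a probe set may not separate, read 10.75, 10.45 and 10.86 in wild type and 9.18, 9.62 and 8.23 in dB/dB. The difference was -1.68 (SE 0.37), and again wild type 1 lay with the other wild-type arrays. Npr2, the receptor of C-type natriuretic peptide, read 5.46, 6.90 and 6.77 against 5.01, 5.12 and 4.78. Its difference was -1.40 (SE 0.36), and -1.86 without wild type 1, where it passed (adjusted p = 0.0231 in limma, 0.00172 to 1.00 over all alternatives). Osr2, a zinc-finger factor of kidney development, read 3.96, 5.83 and 4.56 against 3.17, 3.17 and 3.16. Its dB/dB values were nearly identical and below the filter value of 4. Among the 6 arrays only wild-type arrays exceeded that value for Osr2, so its lack of overlap supports nothing by itself. Pde1a, a calmodulin-dependent phosphodiesterase, read 8.39, 9.45 and 9.41 against 7.82, 7.54 and 7.37, a difference of -1.51 (SE 0.36).

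The other lower genes named by the rule included some whose second probe set overlapped. Stxbp6, a partner of SNARE proteins in exocytosis, read 6.00, 6.46 and 5.80 against 4.07, 4.23 and 4.28, a difference of -1.90 (SE 0.38). A second Stxbp6 probe set differed by -0.61 and overlapped. Cldn1, a tight junction claudin, differed by -1.74 (SE 0.68), and its second probe set by -0.67 with overlap. Atg4c, an autophagy protease, differed by -1.49 (SE 0.41), while its other probe set differed by 0.07. Jchain, the joining chain of polymeric antibodies, read 3.38, 4.05 and 7.24 in wild type and 2.30, 3.19 and 3.14 in dB/dB. Its difference of -2.01 (SE 0.87) came to -0.83 without wild type 3, the 1 array with a high value. Of these arrays only wild-type arrays exceeded the filter value of 4, so the lack of overlap of Jchain supports nothing by itself. Zfp954, a zinc-finger protein, differed by -1.70 (SE 0.41), Dusp14, a phosphatase of MAP kinases, by -1.68 (SE 0.83), and Sectm1a, a secreted and membrane-bound protein, by -1.58 (SE 0.55).

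The study held a second pair of groups that differ in dB/dB status, dB/dB catalase-Tg and catalase-Tg, in which both sides carry the catalase transgene. It shares no array with the comparison described here. Across the 9751 genes, 74.6% had a difference of the same sign in both pairs, with r = 0.689 across genes, which are not independent replicates. In the second pair 5 probe sets passed (0.0276%), 5906 genes (60.6%) had a difference below 0, and 769 genes (7.89%) lay higher and 972 (9.97%) lower without overlap. In both pairs at once 10 genes (0.103%) lay higher and 130 (1.33%) lay lower, while 1 gene lay higher in the first pair and lower in the second and 1 the reverse.

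**Figure D2:**
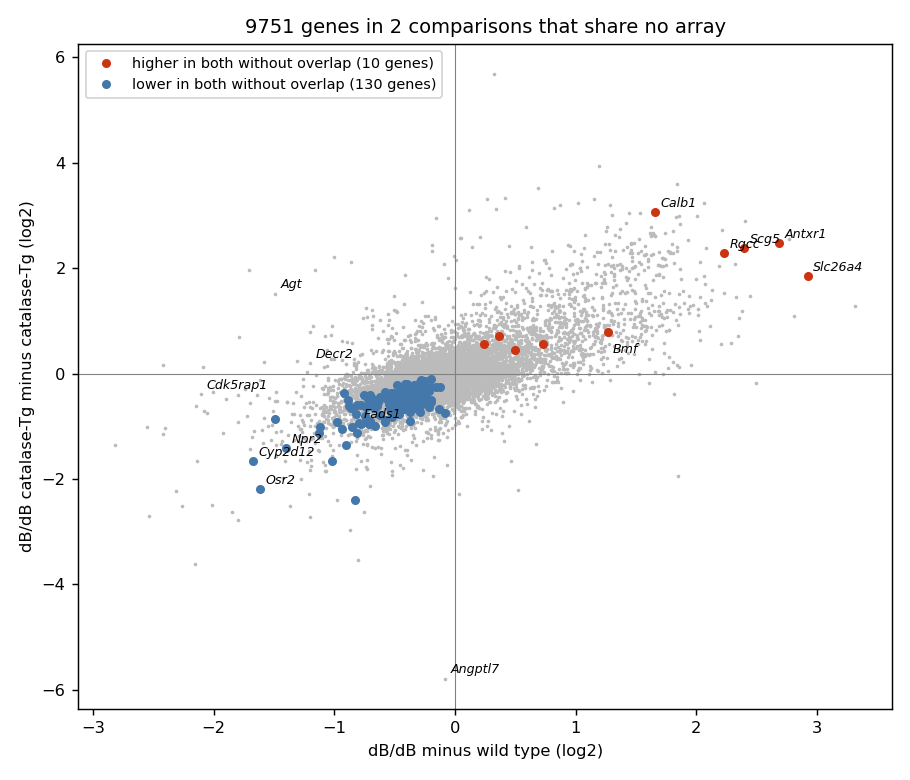
Log2 difference of dB/dB from wild type (horizontal axis) against that of dB/dB catalase-Tg from catalase-Tg (vertical axis), with 1 point for each of 9751 genes. Red points are the 10 genes higher and blue points the 130 genes lower without overlap in both pairs; Rgcc lies near 2.2 on both axes, Cdk5rap1 and Decr2 are low only on the horizontal axis, and Angptl7 only on the vertical axis.

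Rgcc, Antxr1, Scg5 and Slc26a4 were among the 10 genes higher in both pairs, and so was Calb1, a calcium buffer of distal tubule cells. The 10 were 0.103% of genes, where 2.17% lay higher without overlap in this pair and 7.89% in the second. The count of 10 supports nothing by itself. The largest differences in each direction were named only if the second pair had the same sign, so such agreement was partly selected. Rgcc read 4.66, 3.69 and 4.07 on the catalase-Tg arrays and 6.06, 6.43 and 6.78 on the dB/dB catalase-Tg arrays. Its differences in the 2 pairs were 2.23 and 2.29, and their average of 2.26 (SE 0.24) passed (adjusted p = 0.0217 in limma), as did 3 probe sets of 18144 in all (0.0165%), against 1 with the replicate number as a block. That adjusted p ran from 0.0007 to 0.178 over the alternatives and was under 0.05 in 11 of 23 of them. The call was lost whenever any dB/dB array was left out, with the replicate number as a block (0.0846), and with the marker covariate described below. Leaving out wild type 3, or array 2 or 3 of either group with the transgene, also lost it, as did dropping the filter on low values. The direction held in all 23, with the average between 1.95 and 2.63. Antxr1 read 3.18 to 3.26 on the catalase-Tg arrays and 5.23 to 5.94 on the dB/dB catalase-Tg arrays, a difference of 2.47. Calb1 read 12.95, 9.35 and 12.15 in wild type and 13.08, 13.34 and 13.00 in dB/dB, with differences of 1.66 in this pair and 3.06 in the second.

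The other 2 probe sets that passed for the average lay lower in dB/dB. They named Angptl7, a secreted angiopoietin-like protein that lay near the floor on all 6 arrays here (2.36 to 2.49), and 1700028P14Rik, an uncharacterised transcript. Angptl7 exceeded the filter value of 4 only on the catalase-Tg arrays, so its call supports nothing by itself. 1700028P14Rik read 3.86, 4.02 and 4.85 in wild type and 3.51, 3.30 and 3.43 in dB/dB, a difference of -0.83 (SE 0.27), and its average was -1.62 (adjusted p = 0.0354 in limma, 0.0007 to 0.191 over the alternatives). With the replicate number as a block that call was lost (adjusted p = 0.0846 in limma). Among the 6 arrays only wild-type arrays exceeded the filter value of 4 for 1700028P14Rik. Its lack of overlap and its call for the average therefore support nothing by themselves. Among the genes lower in both pairs, Cyp2d12 differed by -1.68 and -1.66 and Osr2 by -1.62 and -2.20, with the limit given above for Osr2. Of the same genes Npr2 differed by -1.40 and -1.41, and Atg4c by -1.49 and -0.87. Cyp2d12, Osr2 and Npr2 had averages of -1.67, -1.91 and -1.41, with adjusted p-values of 0.158, 0.185 and 0.268 in limma. Cdk5rap1 was not among them. It differed by -0.39 in the second pair, where its catalase-Tg arrays read 7.92, 7.18 and 7.03 and its dB/dB catalase-Tg arrays 6.27, 7.46 and 7.23. The test of the difference between its 2 effects gave 1.72 (SE 0.47) and did not pass (adjusted p = 1.00 in limma), where 1 probe set of 18144 did (0.00551%).

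Leaving out wild type 1 moved the count of calls from 0 to 107 probe sets (0.59%), 53 higher and 54 lower, with the limits given above. The genes with the smallest p in that fit included Antxr1 and Rgcc on the higher side. Slc2a1, the glucose transporter GLUT1 of the basolateral membrane, read 10.47, 7.70 and 8.34 in wild type and 10.05, 10.42 and 10.28 in dB/dB. The groups overlapped for Slc2a1 because wild type 1 was the highest of the 6 arrays. Its difference was 1.41 (SE 0.56) with all arrays and 2.23 without wild type 1 (adjusted p = 0.0167 in limma, 0.00167 to 1.00 over all alternatives). Pdk1, a kinase that shuts off pyruvate dehydrogenase, read 9.44, 6.56 and 7.42 against 9.26, 9.10 and 9.51, and its difference went from 1.48 to 2.30 (adjusted p = 0.0231 in limma). Slc2a1 and Pdk1 behaved alike on wild type 1, which read as high as dB/dB for both.

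Lower genes showed the mirror image. Fam151a read 8.04, 10.59 and 10.69 in wild type and 8.31, 8.92 and 8.25 in dB/dB, with wild type 1 the lowest of the 6, and its difference was -2.15 without wild type 1 (adjusted p = 0.0127 in limma). Ccdc6, a coiled-coil protein, read 6.31, 9.50 and 10.30 against 6.40, 6.17 and 6.27, and gave -3.62 (adjusted p = 0.0167 in limma). Gm3716, a predicted gene, gave -4.17 (adjusted p = 0.00195 in limma). Wild type 1 lay within or just below the dB/dB range for all 3 of these genes. Chn2, a Rac-regulating chimaerin, gave -2.19, Gm31718, a predicted gene, -1.99, and Dnah11, a dynein chain, 1.46, each with an adjusted p of 0.0231 in limma.

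In the reverse case, with wild type 1 kept as the lone wild-type array and assumed to vary like the other groups, no probe set passed. Fam151a then differed by 0.45 and Slc2a1 by -0.22, against the direction with all arrays. Rgcc still differed by 1.62 or more and Cdk5rap1 by -1.91 or less in every alternative.

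Leaving out catalase-Tg 1 and dB/dB catalase-Tg 1 together with wild type 1, the 3 arrays with the lowest array weights in their groups, gave 4875 calls, 1738 higher and 3137 lower. Those arrays were picked for their distance from their own groups, which lowers the spread of the fit by construction, and wild type is then represented by the 2 arrays that carry Xist. The count is therefore given as a description.

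**Figure D3:**
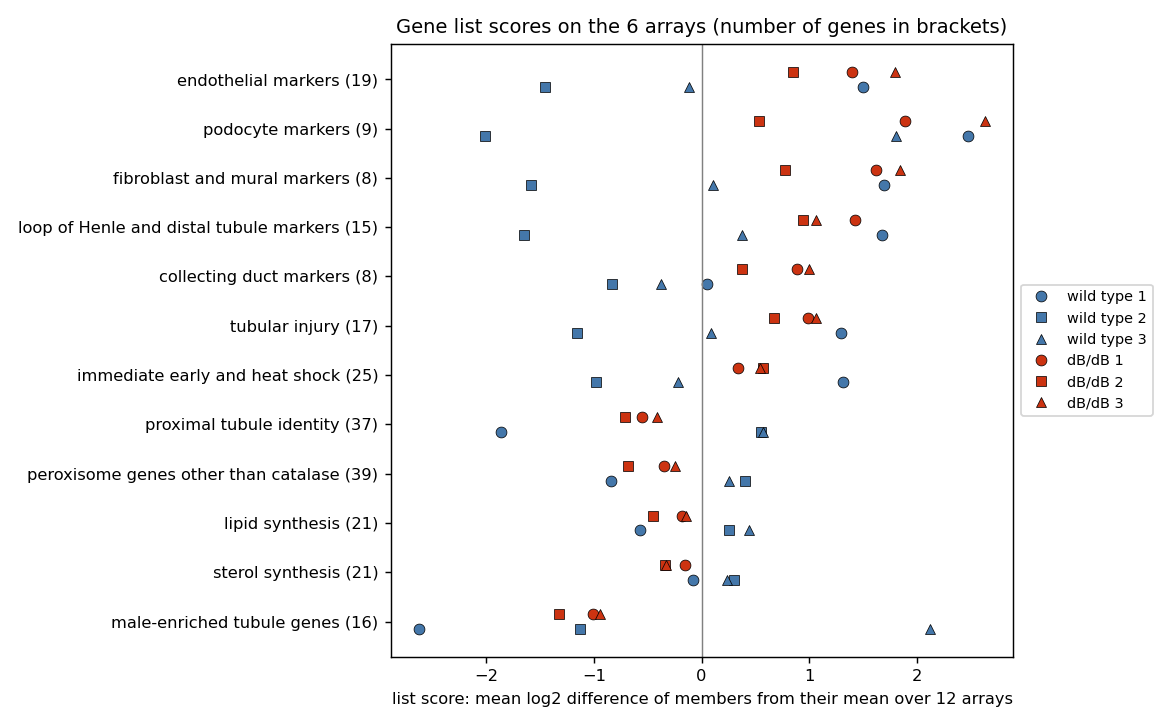
Scores of 12 gene lists on each of the 6 arrays, where the score (horizontal axis) is the mean log2 difference of the members from their own mean over 12 arrays. Blue symbols are wild type and red symbols dB/dB, with circles, squares and triangles for arrays 1, 2 and 3. Wild type 1 lies with or beyond the dB/dB arrays in most lists, while in the collecting duct and sterol synthesis lists all 3 dB/dB arrays lie on 1 side of all 3 wild-type arrays.

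Genes of the proximal tubule itself were lower in dB/dB than in wild type 2 and wild type 3 but higher than in wild type 1. Of 37 identity genes tested, 29 had a difference below 0 and 25 lay below the median of all genes. Their median was -0.36, against -0.11 for all genes, and 0 of 37 lay apart without overlap in either direction. Of all genes 2.17% lay higher and 8.38% lower without overlap. The list score was -1.86, 0.55 and 0.58 in wild type and -0.55, -0.72 and -0.41 in dB/dB. The median was -1.02 without wild type 1, 0.12 without wild type 2 and 1.17 with wild type 1 alone, so its direction followed the wild-type arrays kept. Keg1, a kidney glycine acyltransferase-like gene, read 10.53, 13.02 and 12.79 in wild type and 11.01, 11.01 and 10.71 in dB/dB. Gatm, the first enzyme of creatine synthesis, read 11.57, 13.39 and 13.26 against 12.27, 12.42 and 12.04. Slc7a9, a subunit of the cystine transporter, and Slc9a3, the sodium-hydrogen exchanger NHE3, differed by -0.51 (SE 0.38) and -0.72 (SE 0.55). In each of these 4 genes the groups overlapped, and wild type 1 read with or below dB/dB.

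Markers of other kidney cells lay higher in dB/dB. All 19 endothelial markers had a difference above 0, with a median of 1.54, and so did 9 of 9 podocyte markers (median 0.82) and 8 of 8 fibroblast and mural markers (median 1.52). The summed signal of these lists varied mostly among the wild-type arrays. The endothelial score was 1.50, -1.45 and -0.11 in wild type and 1.40, 0.85 and 1.80 in dB/dB, and the podocyte score 2.48, -2.01 and 1.81 against 1.89, 0.53 and 2.64. Wild type 1 therefore read like dB/dB, and wild type 2 far below it. Without wild type 2 the podocyte median was -0.51. None of the marker genes passed the test, and 3 of 19 endothelial markers, Flt1, Plvap and Tek, lay higher without overlap, where 2.17% of all genes did. Flt1, a receptor for vascular endothelial growth factor, read 5.04, 2.48 and 3.75 in wild type and 5.36, 5.49 and 5.34 in dB/dB. Acta2, smooth muscle actin, read 9.90, 6.09 and 7.94 against 10.45, 9.21 and 9.98. With wild type 1 alone the 3 medians were -0.13, -0.84 and -0.11, and with the mean score of these 3 lists as a covariate they were 0.22, -0.41 and 0.16. That score is made from these same genes, so the medians under it support nothing by themselves. Whether fewer proximal cells or less RNA per proximal cell underlay such differences cannot be told apart in these bulk samples. The part of these cells in the values of Plvap, Cd93, Mgp, Fbln5 and Antxr1 was not tested. Under that covariate the genes differed by 1.52, 0.72, 1.32, 1.17 and 2.28, while Rgcc differed by 2.20 and Cdk5rap1 by -1.97. Plvap is itself a member of the score, so its value under the covariate is circular.

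Markers of later tubule segments were also higher. In the loop of Henle and distal tubule list 14 of 15 genes had a difference above 0, with a median of 1.22. Only Calb1 lay higher without overlap, where 2.17% of all genes did, and none lay lower so. Slc12a3, the thiazide-sensitive sodium chloride transporter of the distal convoluted tubule, read 14.06, 9.30 and 12.23 in wild type and 14.09, 13.86 and 13.72 in dB/dB. Klk1, tissue kallikrein, whose probe sets may also take up near-identical kallikreins, differed by 1.29 (SE 0.66). Both were lowest on wild type 2 and next lowest on wild type 3. The list's median was 0.16 without wild type 2, -0.63 with wild type 1 alone and 0.42 with the marker covariate. Cldn10, a claudin listed with the loop markers and also known from the proximal tubule, was the exception, at 9.74, 11.08 and 10.87 in wild type and 9.93, 9.29 and 9.93 in dB/dB.

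Collecting duct markers were the 1 list of other cells whose dB/dB arrays did not overlap with wild type and whose median kept its sign whichever wild-type arrays were left out. The list score was 0.05, -0.83 and -0.38 in wild type and 0.89, 0.37 and 1.00 in dB/dB, although only 8 of its 15 genes reached the filter. The median was 1.40 with all arrays, 0.84 without wild type 2, 0.80 with wild type 1 alone and 0.69 with the marker covariate. Of the 8 genes, 6 had a difference above 0 and 2 had one below it, the lowest at -0.80. Without overlap 3 lay higher, where 2.17% of all genes did. Besides Slc26a4 these were Hsd11b2, the enzyme that inactivates glucocorticoids in aldosterone target cells, and Slc4a9, an anion exchanger of intercalated cells. Hsd11b2 read 4.79, 4.18 and 4.27 in wild type and 6.13, 6.02 and 6.68 in dB/dB, a difference of 1.86 (SE 0.64), with wild type 1 inside its own group. Slc4a9 read 2.44 on all 3 wild-type arrays and 4.39, 2.45 and 4.75 in dB/dB, so that 4 of the 6 arrays lay at 1 low value to within 0.02. Slc4a9 passed the filter only through arrays of dB/dB mice, so its lack of overlap, by 0.01, supports nothing. The list's score, medians and count without overlap include Slc4a9 and were not taken without it. The mean level of the list was 5.09, 4.21 and 4.66 on the wild-type arrays, close to the filter value of 4. Atp6v0d2, a proton pump subunit of intercalated cells, read 5.13, 3.42 and 3.21 against 5.32, 4.84 and 5.76 and overlapped. Leukocyte and macrophage markers, with 6 genes tested, had a median of 0.63 and no gene without overlap, and the median was -0.03 without wild type 2 and 0.05 with the marker covariate. Their defining gene Ptprc differed by 0.67, and Csf1r, the receptor of a macrophage growth factor, by -0.70 (SE 0.43). Of 30 list medians, 22 changed sign with wild type 1 alone, 9 without wild type 2, 3 without wild type 1 and 12 with the marker covariate. After centring 5 changed sign, all of them within 0.06 of 0 before it: glucose and fructose transport, gluconeogenesis, fatty acid oxidation, the respiratory chain and apoptosis, at 0.06 to 0.11.

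**Figure D4:**
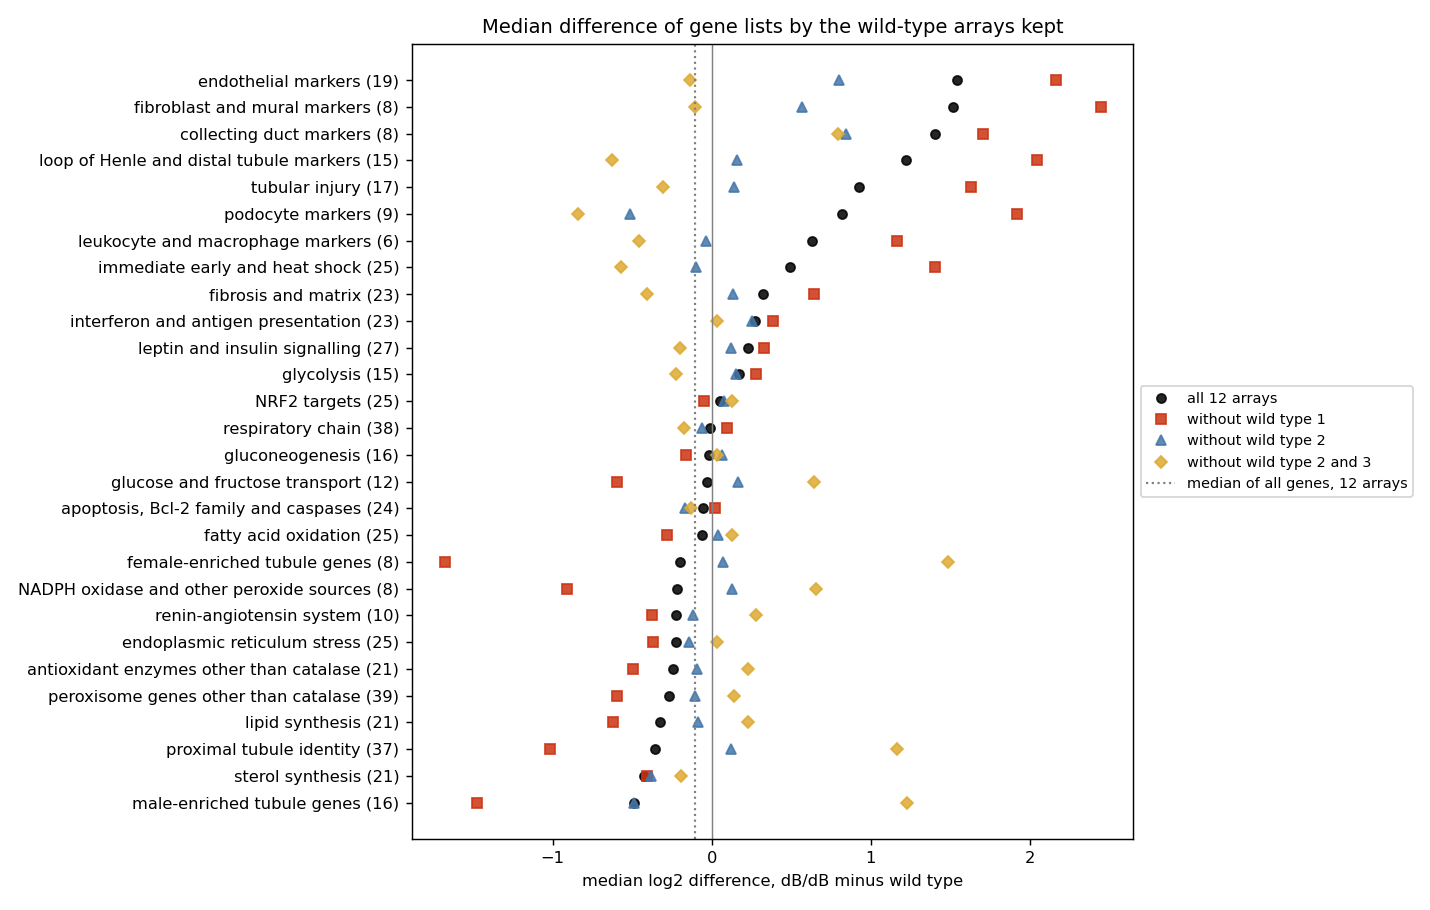
Median log2 difference of dB/dB from wild type (horizontal axis) for 28 gene lists, with the number of genes tested in brackets. Black circles use all 12 arrays, red squares leave out wild type 1, blue triangles leave out wild type 2, and yellow diamonds keep wild type 1 as the lone wild-type array; the dotted line is the median of all genes, -0.11. Endothelial markers run from 2.17 to -0.13 over these settings, while sterol synthesis stays between -0.43 and -0.20.

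Glucose handling genes had medians near 0 with all arrays. The 12 glucose and fructose transport genes had a median of -0.03, which came from unlike wild-type arrays: it was -0.60 without wild type 1, 0.17 without wild type 2 and 0.65 with wild type 1 alone. The 16 gluconeogenesis genes had a median of -0.02, and between -0.16 and 0.07 in those settings. Slc5a2 and Slc2a2, the sodium-glucose transporter SGLT2 and the transporter GLUT2 that carry most of the filtered glucose, differed by -0.02 and 0.06. Pck1 and G6pc, the enzymes that gate glucose production, differed by 0.09 and -0.20, and G6pc by -1.25 to 0.34 when 1 array was left out at a time. Slc5a1, the transporter SGLT1 of the later proximal tubule, read 9.30, 8.58 and 8.21 in wild type and 8.30, 7.02 and 8.18 in dB/dB, a difference of -0.86 (SE 1.02). Slc5a3, the inositol transporter that answers to osmotic load, differed by 1.04 (SE 0.81) with all arrays and by 0.09 without wild type 2. The 15 glycolysis genes had a median of 0.17, and of -0.22 with wild type 1 alone. Eno3, the muscle enolase, was the 1 of them that lay higher without overlap, where 2.17% of all genes did. It read 5.11 to 5.15 in dB/dB against 4.10 to 4.63 in wild type. Pkm, pyruvate kinase, read 11.40, 6.44 and 9.30 in wild type and 11.24, 10.53 and 10.59 in dB/dB, again lowest on wild type 2.

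Medians were also near 0 for genes of energy production. The median was -0.06 for 25 genes of fatty acid oxidation (-0.28 without wild type 1, 0.13 with wild type 1 alone) and -0.01 for 38 of the respiratory chain (0.10 and -0.18). In the respiratory chain 3 of 38 genes lay lower without overlap, Ndufs1 of complex I, Sdhc of complex II and Uqcrc2 of complex III, and 1 lay higher, Ndufv1, of whose 3 probe sets 1 differed in the opposite direction. Over all genes 8.38% lay lower and 2.17% higher, so these counts were near the background. Ndufs1 read 11.27, 11.71 and 11.51 against 11.24, 10.79 and 11.01, a difference of -0.49 (SE 0.27), with a gap of 0.03 between wild type 1 and the highest dB/dB array. Acat1, which acts on ketone bodies and isoleucine, lay lower without overlap at all 3 of its probe sets, by -0.38 to -0.47. Pdk4, the pyruvate dehydrogenase kinase that fasting and fatty acids raise, differed by 0.79 (SE 0.55), and Ppargc1a, the coactivator of mitochondrial growth, by 0.52 (SE 0.38). Their groups overlapped.

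Sterol synthesis genes had small differences, mostly below 0. Of 21 genes tested, 19 had a difference below 0, where 62.2% of all genes did, 17 lay below the median of all genes, and none passed. The median was -0.43 with all arrays, -0.40 without wild type 1, -0.38 without wild type 2, -0.44 without wild type 3, -0.20 with wild type 1 alone and -0.19 with the marker covariate. With wild type 1 alone the median of all genes was -0.10, and Mvd and Insig1 then differed by 0.39 and 0.20, above wild type 1. The list's median was -0.31 after centring and -0.33 after quantile normalization. The list score was -0.08, 0.31 and 0.23 in wild type and -0.15, -0.34 and -0.33 in dB/dB, so the groups did not overlap, but wild type 1 stood close to dB/dB 1. Only Sqle, squalene epoxidase, lay lower without overlap, where 8.38% of all genes did. Mvd, the decarboxylase that ends the mevalonate steps, read 4.26, 6.72 and 6.80 in wild type and 4.73, 4.66 and 4.57 in dB/dB. Its difference was -1.27 (SE 0.57) with wild type 1 below the dB/dB arrays, and -2.11 without wild type 1, where it passed (adjusted p = 0.0246 in limma, 0.000772 to 1.00 over all alternatives). Ebp and Idi1, isomerases of the later and earlier pathway, differed by -0.90 (SE 0.46) and -0.72 (SE 0.39). Dhcr7, the last reductase of cholesterol synthesis, read 6.82, 5.99 and 6.51 against 6.15, 5.94 and 5.96, a difference of -0.43 (SE 0.21). Srebf2, the transcription factor that drives the pathway, read 5.75, 5.53 and 5.50 against 5.53, 4.70 and 5.18, a difference of -0.46 (SE 0.22), and its second probe set gave -0.54 without overlap. Insig1, the sterol sensor's anchor and itself a target of that factor, differed by -0.55 (SE 0.41), and Hmgcs1, the first committed synthase, by 0.03 (SE 0.35). In the second pair of groups the list's median was -0.19, with 15 of 21 genes below 0.

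SREBP factors bind a sterol regulatory element and also the E-box, and 17 of the 21 genes had a promoter in the RefSeq table of GRCm38.p6. The windows below run from 250 bases before to 50 bases after the transcription start, and they are shown for the gene of the pathway with the largest difference, for the 1 gene that holds the sterol element, and for a gene that holds an E-box; Hmgcs1 and Insig1 were picked after their values were seen. Both strands were searched, capitals mark the match, and the 2 motifs do not overlap here. The element TCACNCCAC was in 408 of 32851 promoter windows (1.24%) and in 1 of the 17 genes, Hmgcs1, and the E-box CACGTG was in 2349 windows (7.15%) and in 5 of the 17, Dhcr7, Hsd17b7, Insig1, Sc5d and Scap. Mvd lies at chr8:122443373-122443672 on the minus strand, Hmgcs1 at chr13:119690101-119690400 on the plus strand and Insig1 at chr5:28071162-28071461 on the plus strand, each printed 5′ to 3′ along its gene.
Mvd: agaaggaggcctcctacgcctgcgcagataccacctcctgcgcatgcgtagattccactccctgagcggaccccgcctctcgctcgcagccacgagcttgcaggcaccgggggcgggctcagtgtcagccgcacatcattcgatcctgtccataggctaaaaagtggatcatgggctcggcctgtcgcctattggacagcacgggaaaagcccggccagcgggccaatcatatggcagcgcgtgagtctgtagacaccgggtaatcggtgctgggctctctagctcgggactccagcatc
Hmgcs1: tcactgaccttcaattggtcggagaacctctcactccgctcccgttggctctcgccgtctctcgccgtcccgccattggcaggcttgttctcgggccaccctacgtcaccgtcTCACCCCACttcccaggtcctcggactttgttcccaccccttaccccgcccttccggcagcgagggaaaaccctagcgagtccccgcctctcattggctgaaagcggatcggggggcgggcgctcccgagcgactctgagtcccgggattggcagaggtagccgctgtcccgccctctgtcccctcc
Insig1: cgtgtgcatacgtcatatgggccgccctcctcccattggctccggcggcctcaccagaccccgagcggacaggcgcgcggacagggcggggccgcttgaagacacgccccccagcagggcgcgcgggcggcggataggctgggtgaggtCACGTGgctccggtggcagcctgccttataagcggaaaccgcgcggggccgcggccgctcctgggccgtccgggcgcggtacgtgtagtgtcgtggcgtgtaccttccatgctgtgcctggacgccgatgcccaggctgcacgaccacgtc
The gene with the largest difference, Mvd, held neither motif in this window, while Hmgcs1, which held the sterol element, differed by 0.03.

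**Figure D5:**
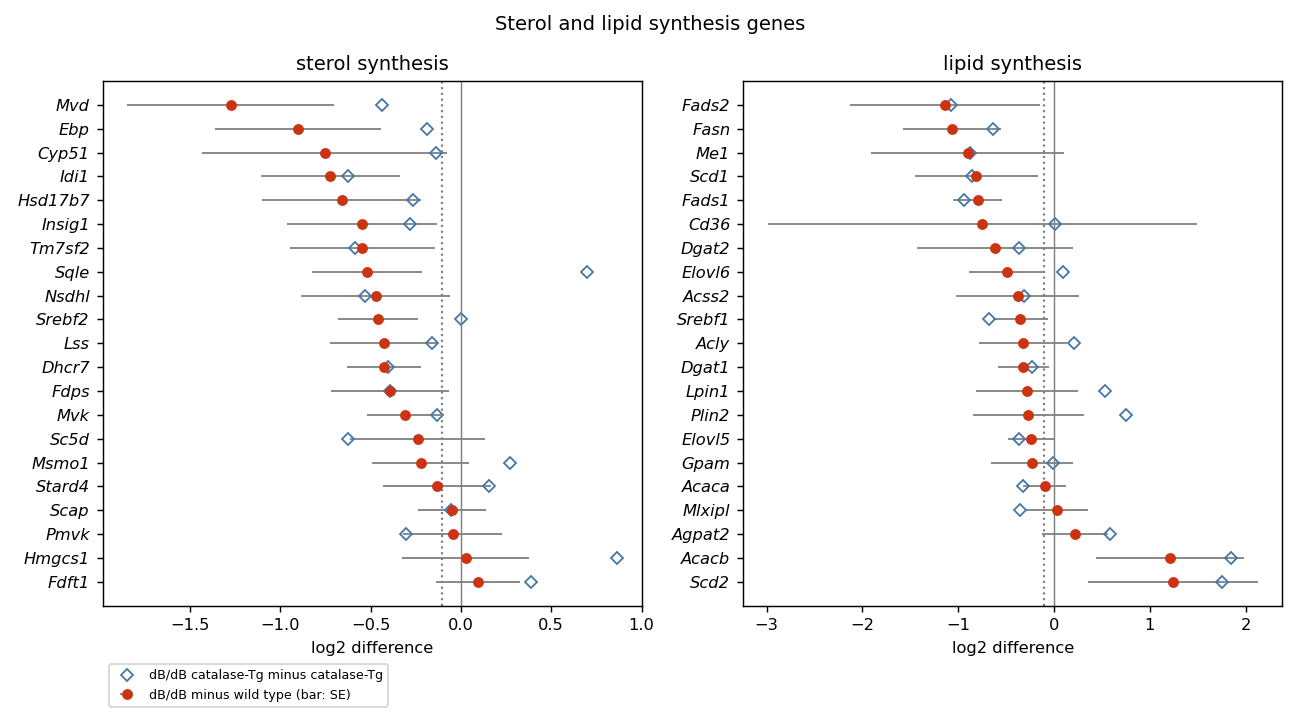
Log2 differences (horizontal axis) of the 21 sterol synthesis genes on the left and the 21 lipid synthesis genes on the right. Red points are dB/dB minus wild type with bars of 1 SE, blue diamonds are dB/dB catalase-Tg minus catalase-Tg, and the dotted line is the median of all genes, -0.11. In the sterol list 19 of 21 red points lie below 0, with Mvd lowest at -1.27; in the lipid list Scd2 and Acacb lie above 1 and Fads2 and Fasn below -1.

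Genes of fatty acid and triglyceride synthesis gave a like count, with 17 of 21 below 0 and a median of -0.32. That median moved with the wild-type arrays, from -0.62 without wild type 1 to 0.23 with wild type 1 alone. Fads1, the desaturase that makes arachidonate, was the 1 member of the 21 that lay lower without overlap, where 8.38% of all genes did. It read 8.08, 8.68 and 8.34 in wild type and 7.93, 7.31 and 7.46 in dB/dB. Its difference was -0.80 (SE 0.26), and in the second pair Fads1 was also lower without overlap (-0.94). Fasn, fatty acid synthase, read 4.68, 6.65 and 6.30 against 5.13, 4.35 and 4.96, a difference of -1.07 (SE 0.51). Acacb, the acetyl-CoA carboxylase that restrains fatty acid oxidation, went the other way, at 6.74, 2.99 and 4.80 against 6.67, 5.49 and 6.00. Srebf1, the factor that drives fatty acid synthesis, differed by -0.35.

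Of 39 peroxisome genes other than catalase, 35 had a difference below 0 and 29 lay below the all-gene median, with a list median of -0.27. Only 3 of the 39 lay lower without overlap, near the 8.38% of all genes. The score was -0.84, 0.40 and 0.26 in wild type and -0.35, -0.68 and -0.24 in dB/dB, so wild type 1 was the lowest of the 6 arrays, and the median was 0.14 with wild type 1 alone and 0.00 with the marker covariate. Decr2, the peroxisomal reductase for unsaturated fatty acids, did not follow that order. It read 7.24, 7.39 and 6.65 in wild type and 5.72, 5.69 and 6.27 in dB/dB, with wild type 1 among the highest arrays. Its difference was -1.20 (SE 0.23, adjusted p = 0.728 in limma), between -1.42 and -1.05 over the alternatives, and 0.20 in the second pair. Pex26, an anchor of the peroxisomal import machinery, read 5.62 to 5.76 against 5.19 to 5.46, and Agps, an enzyme of ether lipid synthesis, also lay lower without overlap. Pex5, the receptor that imports catalase and other enzymes, differed by -0.89 (SE 0.44) and overlapped.

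Catalase itself read 10.66, 12.68 and 12.43 in wild type and 12.24, 12.36 and 12.56 in dB/dB. The Cat difference was 0.46 (SE 0.48) with all arrays, -0.17 without wild type 1, and -0.04 at a second probe set. Of 21 other antioxidant genes 17 had a difference below 0, where 62.2% of all genes did, with a median of -0.24. That median was -0.49 without wild type 1, -0.09 without wild type 2, 0.23 with wild type 1 alone and 0.01 with the marker covariate. Txn1, thioredoxin, differed by -0.42 (SE 0.29), and Gpx8, a peroxidase of the endoplasmic reticulum, by 1.39 (SE 0.89) with wild type 2 far below the other arrays at 4.67. The 25 genes of the NRF2 list were split, 13 above 0 and 12 below, with a median of 0.05. The list holds genes induced by oxidants and electrophiles, and also Nfe2l2, which encodes NRF2, and its repressor Keap1. Without overlap Keap1 lay higher and Srxn1 lower, 1 gene each, where 2.17% and 8.38% of all genes did. Hmox1, heme oxygenase, read 3.71, 4.37 and 5.16 in wild type and 4.44, 3.23 and 4.08 in dB/dB, with overlap. Srxn1, which repairs oxidised peroxiredoxins, lay lower without overlap at both of its probe sets, at 8.16 to 8.42 against 7.53 to 7.96 for the brighter 1, a difference of -0.48 (SE 0.23). Nox4, the main NADPH oxidase of tubule cells, read 10.33, 12.97 and 11.91 against 10.56, 11.05 and 10.75, a difference of -0.95 (SE 0.59), with wild type 1 lowest.

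Genes of cell death were mixed, with 11 of 24 above 0 and a median of -0.05. Bmf, a BH3-only protein that promotes apoptosis, read 4.96, 3.77 and 4.35 in wild type and 5.51, 5.48 and 5.86 in dB/dB. All 3 dB/dB arrays lay above all 3 wild-type arrays, with a gap of 0.52 between the nearest. The Bmf difference was 1.26 (SE 0.31, adjusted p = 0.767 in limma), 2.39-fold, and 1.56 without wild type 1 (adjusted p = 0.0534 in limma, 0.00323 to 1.00 over all alternatives). In the second pair it was 0.29 with overlap, and the difference between the 2 effects, -0.97 (SE 0.44), did not pass (adjusted p = 1.00 in limma). Mcl1, a survival protein of the Bcl-2 family, lay higher without overlap at 1 of its 6 probe sets, by 0.32 (SE 0.16), and the other 5 overlapped. Apaf1, the scaffold of the apoptosome, lay lower without overlap, at 4.41 to 4.93 against 3.85 to 4.08. Bik, another BH3-only protein, differed by -0.60 (SE 0.28). Casp12, a caspase of the endoplasmic reticulum, lay below the filter and was not tested. Its brighter probe set read 3.90, 2.39 and 2.37 in wild type and 3.65, 2.82 and 3.49 in dB/dB.

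Among genes of endoplasmic reticulum stress, 19 of 25 had a negative difference and the median was -0.22, with 15 of 25 below the all-gene median. The list's median was 0.03 with wild type 1 alone, -0.07 with the marker covariate, and -0.10 after centring or after quantile normalization. Manf and Sdf2l1, both secretory pathway stress proteins, differed by -0.54 (SE 0.35) and -0.50 (SE 0.34), while Hspa5, the chaperone BiP, differed by -0.02. Among immediate early and heat shock genes, 18 of 25 had a difference above 0 and the median was 0.49, but wild type 1 scored 1.32, above every dB/dB array. The median was 1.41 without wild type 1, -0.10 without wild type 2, -0.57 with wild type 1 alone and -0.24 with the marker covariate. Dusp1, a phosphatase induced within minutes of stress, read 10.22, 7.58 and 7.96 in wild type and 9.27, 10.01 and 9.65 in dB/dB. Of the 25 genes, 7 went the other way, among them the cytosolic chaperones Hsph1 and Dnaja1. Hsph1, a nucleotide exchange factor of heat shock proteins, lay lower without overlap at both of its probe sets, at 8.50, 9.28 and 9.41 against 8.45, 8.10 and 8.10, a difference of -0.84 (SE 0.39). Dnaja1, a co-chaperone, differed by -0.62 (SE 0.32).

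Tubular injury genes had 13 of 17 members above 0 and a median of 0.92, and their score was 1.30, -1.16 and 0.09 in wild type and 0.99, 0.68 and 1.07 in dB/dB. Lgals3, galectin 3, differed by 1.87 (SE 0.86). Clu, the secreted chaperone clusterin, read 13.05, 8.26 and 10.81 in wild type and 12.51, 12.39 and 12.29 in dB/dB. For both genes the groups overlapped, with wild type 2 lowest and wild type 1 as high as dB/dB. Cd24a, a surface protein of regenerating tubules, differed by 1.43 (SE 0.75), and the list's median was 0.14 without wild type 2, -0.30 with wild type 1 alone and 0.15 with the marker covariate. Fibrosis and matrix genes had a median of 0.32 with 19 of 23 above 0. Their median was 0.13 without wild type 2, -0.41 with wild type 1 alone and -0.04 with the marker covariate. Ccn2, the connective tissue growth factor, read 10.35, 4.62 and 8.51 against 10.26, 8.76 and 11.15, and Nid1, a basement membrane linker, differed by 1.57 (SE 0.67). The signal transducers Smad2 and Smad3 of the TGF-beta pathway lay lower without overlap, by -0.26 and -0.44. They were 2 of 23 genes, near the 8.38% of all genes. After centring, 0 genes of this list lay lower without overlap. Tgfb1 itself lay below the filter, at 3.57, 2.32 and 2.33 in wild type and 3.18, 2.45 and 3.30 in dB/dB at its brighter probe set.

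Agt, angiotensinogen, the precursor of angiotensin made in proximal tubule cells, read 3.68, 7.53 and 7.05 in wild type and 4.40, 4.60 and 4.78 in dB/dB. The dB/dB arrays lay between wild type 1 and the other 2 wild-type arrays. The difference was -1.49 (SE 0.93), -2.70 without wild type 1 and 0.91 with wild type 1 alone, and in the second pair it was 1.51. The difference between the 2 Agt effects did not pass. Of the 10 renin-angiotensin genes tested, 8 lay below 0, with a median of -0.22 that was 0.28 with wild type 1 alone and -0.06 with the marker covariate. Prcp, a peptidase that cleaves angiotensin, differed by -0.62 (SE 0.53).

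Leptin and insulin signalling genes had a median of 0.23, with 18 of 27 above 0, and a median of -0.20 with wild type 1 alone and 0.06 with the marker covariate. Igfbp3, a carrier of insulin-like growth factors, lay higher without overlap at both of its probe sets, at 5.94, 5.39 and 5.02 against 6.91, 7.39 and 6.44, a difference of 1.46 (SE 0.62). Akt2, the insulin-responsive kinase, and Pdpk1, the kinase that activates it, lay lower without overlap, by -0.46 and -0.32. They were 2 of 27 genes, near the 8.38% of all genes, and after centring 1 gene of the list lay so. Pdpk1 ran from -0.37 to -0.0024 over the alternatives. Grb14, an adaptor that dampens the insulin receptor, differed by 0.90 (SE 0.47), and Sgk1, a kinase that activates sodium channels, by 1.25 (SE 0.64); both overlapped. Interferon and antigen presentation genes had 19 of 23 members above 0 and a median of 0.27, which was 0.11 without wild type 3, 0.03 with wild type 1 alone and -0.18 with the marker covariate. Rsad2, the antiviral protein viperin, lay higher without overlap, at 8.47, 7.52 and 7.73 in wild type and 9.07, 10.26 and 9.04 in dB/dB, with dB/dB 2 the highest. dB/dB 2 also had the highest list score, 1.06, against -0.20 and 0.07 on the other dB/dB arrays.

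Genes of the tubule that depend on sex hormones differed widely among the wild-type arrays, as Xist and Eif2s3y did. The score of 16 male-enriched genes was -2.63, -1.13 and 2.12 in wild type and -1.01, -1.32 and -0.95 in dB/dB. Slco1a1, an organic anion transporter driven by androgens, read 2.30, 2.54 and 9.92 in wild type and 2.33 to 2.44 in dB/dB, so that wild type 3 alone expressed it. Kap, the androgen-regulated kidney protein, read 8.63, 11.70 and 15.23 against 13.59, 12.79 and 13.70. Among female-enriched genes Slc6a15, an amino acid transporter, read 4.41, 7.42 and 7.67 against 4.50, 4.16 and 4.06, a difference of -2.26 (SE 0.78) that passed without wild type 1 (-3.30, adjusted p = 0.0304 in limma, 0.00083 to 1.00 over all alternatives). Cyp24a1, the enzyme that inactivates vitamin D, read 7.29, 10.02 and 11.15 against 11.65, 11.02 and 10.77, overlapping, with wild type 1 far below the other arrays. The part of sex in these differences was not tested, since the labels give none.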

How the data were processed

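RNA from 12 samples of isolated proximal tubules, 3 in each of 4 groups, was measured on Affymetrix arrays, and 6 of the 12 enter the comparison. Each probe set has 1 log2 value per array, made by the authors with GCRMA, which corrects background and normalizes between arrays, and limma is named as well, both per the submitters' processing notes; versions are not given in the sources used here. The 64 control probe sets among the 45101 were dropped. GEO's annotation gave 1 symbol for 34945 of the other 45037, several for 932 and none for 9160; a probe set with several names no gene here.

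The test was limma 3.58.1 (R 4.3.3) on the probe sets past the filter, fitted to all 12 arrays with a mean for each group, with Benjamini-Hochberg adjustment at a threshold of 0.05. Standard errors (SE) are those of that fit. The test was tried on simulated data. The number of arrays limits the precision, and depth has no meaning for arrays.

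The genes named follow a rule: Cat, Lepr, Bmf, Agt, Casp12, Tgfb1, Hmox1 and Kap; the 12 genes in each direction with the largest difference without overlap and the same sign in the second pair; up to 6 members of each list with the smallest p; genes that passed for the average of the 2 pairs or for their difference; and the 10 with the smallest p without wild type 1. Other genes, among them Xist, Eif2s3y, the list members without overlap and well-known members such as Slc5a2 and Hspa5, were named after their values were seen. The 30 gene lists held 704 entries, of which 546 were tested, and a list score is the mean difference of members from their mean over 12 arrays. The comparison, its members and the lists were chosen with earlier results of these data known. The marker covariate is the mean score of the endothelial, podocyte and mural lists. Replicate numbers were checked for pairing: deviations of same-numbered arrays of the 2 groups correlated at 0.165, 0.145 and 0.097, so the numbers were not taken to pair them. Between catalase-Tg and dB/dB catalase-Tg they correlated at 0.607, 0.453 and 0.426. Wild type gave 0.705, 0.525 and 0.265 with dB/dB catalase-Tg and 0.396, 0.200 and 0.308 with catalase-Tg. dB/dB gave -0.179 to 0.217 with the groups that carry the transgene. The labels state no pairing and differently numbered arrays were not compared, so whether the numbers pair the arrays of these groups was not tested. Blocked values stand beside the results that use those groups where they change a call. Promoter windows come from RefSeq.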

Additional observations from a re-analysis of the deposited data

Results flagged for a closer look

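Angptl7 was the 1 gene for which the difference between the 2 dB/dB effects itself passed, at -5.71 (SE 0.55, adjusted p = 0.0163 in limma; 1 of 18144 probe sets, 0.00551%). It read 2.49, 2.48 and 2.49 in wild type and 2.36, 2.49 and 2.37 in dB/dB, at or near the floor, so these 6 arrays show no expression to compare. The catalase-Tg arrays read 7.51, 7.96 and 9.47 and the dB/dB catalase-Tg arrays 2.60, 2.49 and 2.49. The adjusted p of the difference ran from 7.62e-05 to 0.110 and was under 0.05 in 12 of 23 alternatives, and it was 0.0527 with the replicate number as a block.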

How the results depend on the processing

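No call was made in dB/dB against wild type (limma, 0 of 18144; 755 at an unadjusted p under 0.05) with most alternatives, array weights, centring, quantile normalization and the replicate block included. Calls appeared without a filter on low values (6), without wild type 1 (107) and without the first array of wild type, of catalase-Tg and of dB/dB catalase-Tg (4875); leaving out 1 array at a time gave 0 to 107. The block, with 1565 probe sets at an unadjusted p under 0.05, made 1 call for the average of the 2 pairs in place of 3 and 0 for their difference in place of 1. For the average the counts were 5 without a filter and 5 with 1 probe set per gene, 1975 with array weights, 3515 without those 3 arrays, 0 without wild type 2 and wild type 3, 0 with the marker covariate, and 0 to 1246 leaving out 1 array. For the second pair, 5 calls became 1 with the stricter filter, 883 with array weights, 1 after centring, 3 after quantile normalization, 23 without those 3 arrays, 174 without wild type 2 and wild type 3, and 1 to 22 leaving out 1 array; with the block they stayed 5. Fitted on its own 6 arrays the second pair gave 6 calls, all higher, where the 5 were all lower. The difference between the pairs gave 6 without a filter, 143 without the 3 arrays, 0 without wild type 2 and wild type 3, and 0 to 2 leaving out 1 array. Genes without overlap numbered 477 higher and 410 lower after centring, 321 and 525 after quantile normalization, and 286 to 2031 higher and 1063 to 3485 lower leaving out 1 array. Fewer arrays make overlap less likely by construction; otherwise the cause was not tested.

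Of 113 genes followed, 64 kept their direction in every alternative. Most reversals came with wild type 1 as the lone wild-type array: Slc2a1 -0.22, Pdk1 -0.15, Fam151a 0.45, Gm3716 0.67, Chn2 0.51, Gm31718 0.36, Keg1 0.38, Gatm 0.68, Slc7a9 0.48, Slc9a3 0.10, Acta2 -0.023, Slc12a3 -0.17, Klk1 -0.34, Ptprc -0.34, Slc5a2 0.43, G6pc 1.89, Slc5a3 -0.77, Pkm -0.61, Pdk4 -0.37, Ppargc1a -0.27, Mvd 0.39, Insig1 0.20, Scd2 -0.79, Acacb -0.69, Fads2 1.25, Fasn 0.13, Txn1 0.28, Gpx8 -0.63, Hmox1 0.21, Nox4 0.46, Manf 0.31, Sdf2l1 0.0025, Hspa5 0.28, Dusp1 -0.57, Dnaja1 0.11, Lgals3 -0.30, Clu -0.65, Cd24a -0.25, Ccn2 -0.30, Agt 0.91, Prcp 0.45, Grb14 -0.33 and Slco1a1 0.0798. Without the 3 arrays Slc2a2 gave -0.63, Pck1 -0.24, Hmgcs1 -0.0398, Cat -0.17 and Kap -0.11, and with array weights Slc2a2 gave -0.35, Pck1 -0.035 and Hmgcs1 -0.089. Centring gave Angptl7 0.038, Slc5a2 0.094 and Hspa5 0.10, quantile normalization Hspa5 0.082, and the covariate Slc5a2 0.0088, G6pc 0.47 and Hspa5 0.17. Leaving out 1 array, Slc5a2 ran from -0.30 to 0.16, Slc2a2 from -0.63 to 0.48, Pck1 from -0.24 to 0.49, G6pc from -1.25 to 0.34, Hmgcs1 from -0.075 to 0.19, Cat from -0.17 to 0.84, Hspa5 from -0.18 to 0.13 and Kap from -0.11 to 3.19.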
